A study of Mus musculus with 9 samples.

Results

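The genes described here carry fatty acids into the cell, build, desaturate and elongate them, activate them, oxidise them and store them. The set holds 49 of the 54838 genes in the count table. It was chosen by the measured counts of Lpl, the gene of lipoprotein lipase, which had no count in any knockout library and was detected in every control and parental library. The other 48 genes act in the same pathways and fall with Lpl into 7 role groups. The filter on low counts passed 46 of them. Cd36 and Elovl4 had counts but stayed below it, and Fabp3 had no count in any library.

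RNA-seq was collected from untreated PDA530 Met, a mouse pancreatic ductal adenocarcinoma line which came from the liver metastasis that a male KPC mouse developed (KPC is a genetic model of this cancer; mixed 129/SvJae/C57Bl/6 background). The knockout group was clone E4, 1 single-cell clone edited in Zdhhc20 with CRISPR/Cas9; ZDHHC20 is an enzyme that attaches palmitate, a fatty acid, to proteins. The control group was clone C5, 1 single-cell clone that received the same guide RNAs by nucleofection but carries no edit and still expresses Zdhhc20. Parental samples came from the line before cloning. Each group had 3 libraries, and all 3 groups grew in DMEM with foetal bovine serum and antibiotics. Since each clone was sampled 3 times, p-values measure the spread between these samples, which may be technical, and not between clones, and an effect of the edit cannot be told apart from a difference between clones.

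Total counts ranged from 16525869 to 23192701 per library. Zdhhc20 was lower in every knockout library (33.9 to 42.5 CPM) than in the control (85.8 to 123 CPM) and parental libraries (75.3 to 90.7 CPM), where CPM is the count scaled to library size with TMM factors. Summed over 7 markers, epithelial genes were at 4318 to 4446 CPM in the knockout, 7008 to 9379 CPM in the control and 6696 to 8165 CPM in the parental libraries. Krt8, Krt18, Krt19 and Cdh1 were called lower in both knockout comparisons, Krt7 only against control and Sox9 in neither. Epcam was at a mean of 0.61 CPM in the knockout clone and at most 0.241 CPM in any other library. It passed the filter through the knockout libraries alone, so its higher values there (1.96 and 1.58, log2) are a description. Adipocyte markers summed to at most 0.105 CPM and endothelial markers to at most 0.525 CPM in any library. Macrophage markers summed to 0.946 to 1.28, 1.57 to 2.92 and 1.41 to 2.12 CPM in knockout, control and parental libraries, with Adgre1 at 0 throughout and Cd68 called lower in the knockout than in the control clone (-1.10). Hepatocyte markers summed to 0.0977 to 0.175, 0.178 to 0.525 and 1.12 to 3.00 CPM, with Ttr at 0 in the knockout clone. The 6 fibroblast markers summed to 0.818 to 1.67 CPM in the knockout, 1.31 to 2.89 CPM in the control and 3.12 to 3.998 CPM in the parental libraries, with Col1a2, Dcn and Lum at 0 throughout and Pdgfra called lower in the knockout clone (-1.24 and -2.04). The part of these markers in the results was not tested. The median SD of log2(CPM + 0.5) over all tested genes was 0.23 for control, 0.09 for knockout and 0.10 for parental libraries.

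Lipoprotein lipase releases fatty acids from circulating triglyceride, and transporters, CD36 and binding proteins take them up and carry them through the cytoplasm. Cells also make palmitate from acetyl-CoA, and desaturases and elongases turn it into other fatty acids. Acyl-CoA synthetases activate fatty acids for storage as triglyceride in lipid droplets or for beta-oxidation in mitochondria, and the PPAR nuclear receptors, which bind fatty acids, control many of these genes.

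Apart from Lpl, 18 of the 45 members tested were called between the knockout and control clones at a Benjamini-Hochberg adjusted p under 0.05 in the edgeR quasi-likelihood test. Of these, 5 were higher in the knockout clone (Acly, Acaca, Gpam, Plin2 and Ppard) and 13 lower. Over all 13153 genes tested, 42.9% were called, 18.7% higher and 24.2% lower. Against the parental cells 17 of 45 were called, 5 higher (Acly, Fasn, Plin2, Ppara and Ppard) and 12 lower, where 31.4% of all genes were called, 13.1% higher and 18.3% lower. Because Lpl was picked in these comparisons, the shares are given as a description. Over the same 45 members the median log2 fold change was -0.23 against control and -0.18 against parental libraries, and over all genes -0.02 and -0.01. The counts include Fabp4 and Mgll, which reached the filter level in 0 knockout libraries. The count against the parental cells also includes Ppara, which reached that level in 0 parental libraries. Leaving out control replicate 2 raised the counts to 29 and 28, while all genes called went from 5643 to 7204 and from 4131 to 5676. Leaving out parental replicate 3 lowered the second count to 11, and all genes called to 2515. Fitting only the 2 groups compared raised the second count to 31, and all genes called to 6840.

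In both knockout comparisons 11 of the 45 members were called with 1 sign. Acly, Plin2 and Ppard were higher in the knockout clone, and Slc27a4, Fabp4, Fads3, Elovl5, Acsl5, Acadm, Mgll and Pparg were lower. Of all tested genes 21.5% met this rule, 8.19% higher and 13.4% lower. At a log2 difference of 1 or more each time, Fabp4, Mgll and Pparg were left, all lower (Fabp4 passed the filter through the control libraries alone, and Mgll through control and parental libraries), and of all genes 7.37% were left, 5.98% lower. Both comparisons share the knockout libraries. Without control replicate 2 the count of 11 became 19.

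**Figure D1:**
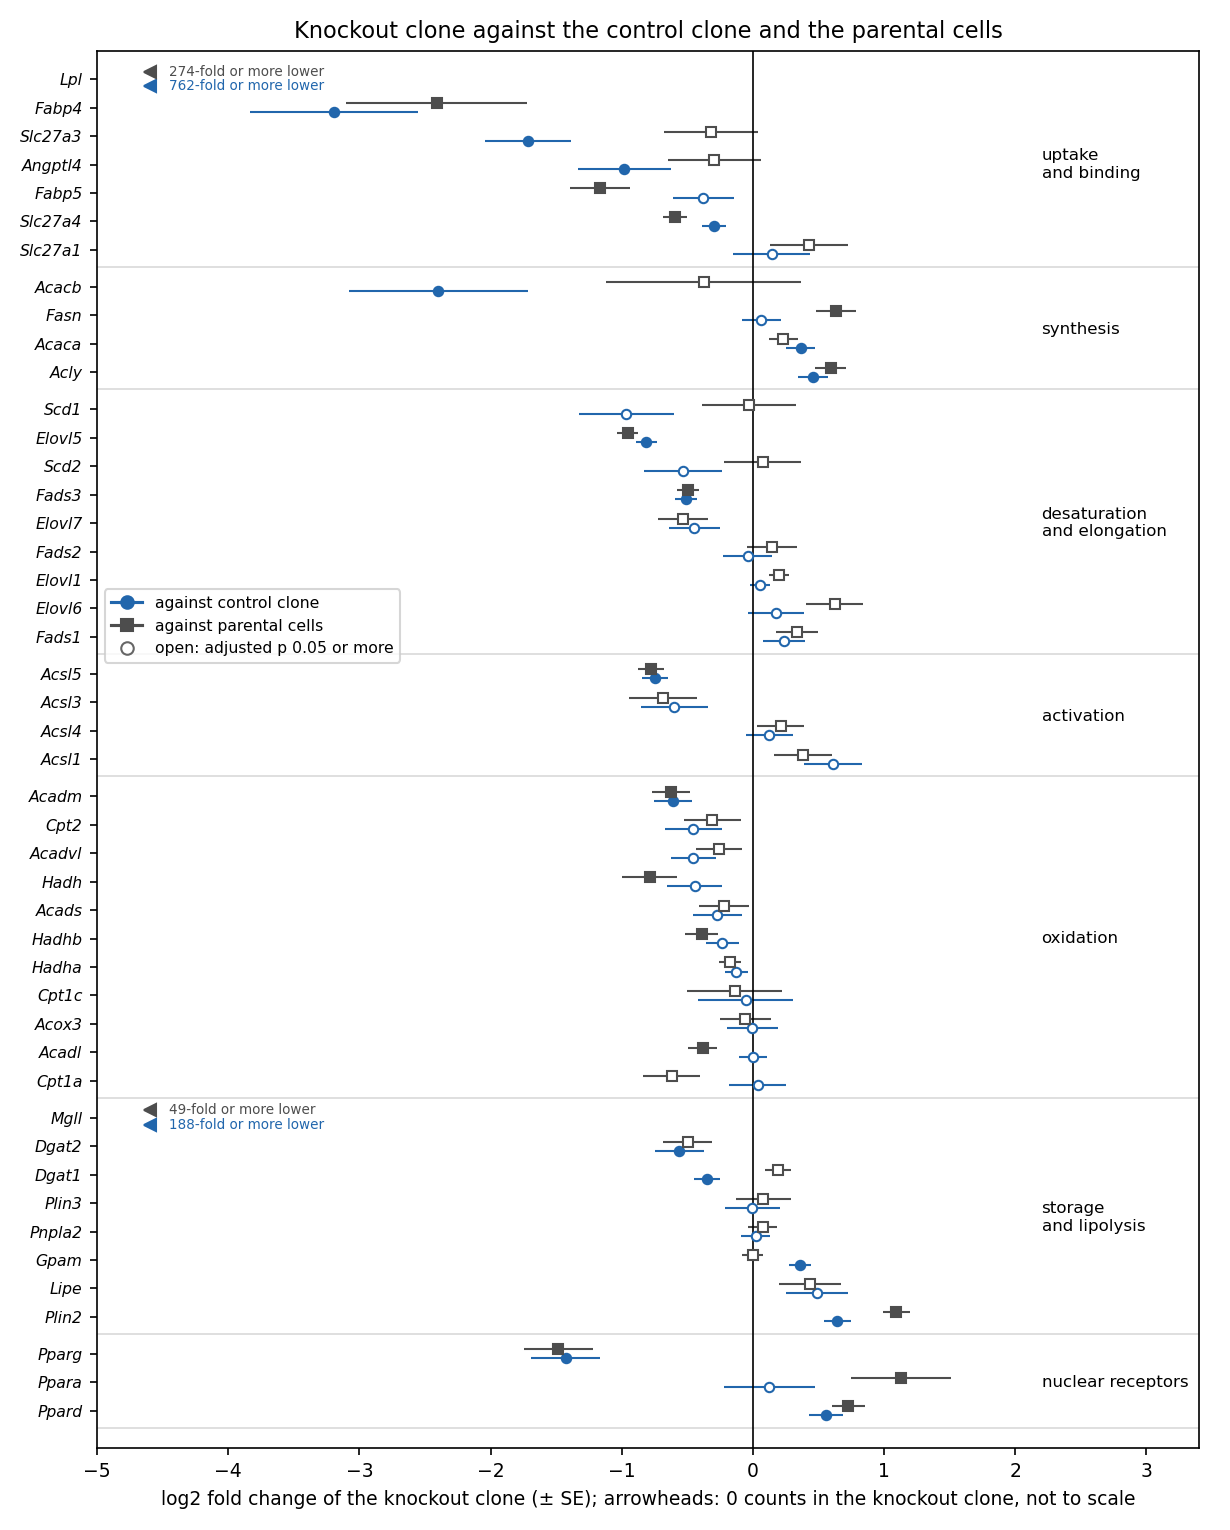
Log2 fold change of the knockout clone (x axis, with SE) for each of the 46 members tested (y axis, by role), against the control clone (circles) and the parental cells (squares), open where the adjusted p was 0.05 or more. Lpl and Mgll had 0 counts in the knockout clone and stand as arrowheads that are not to scale, Pparg lies at -1.43 and -1.49, and all 11 oxidation genes lie below 0 against the parental cells. Of these 11, 8 were also below their parental level in the control clone, a comparison that is not drawn.

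Among the uptake genes, Lpl and Cd36 had no count in the knockout clone and Fabp4 was close to none. Lpl (ENSMUSG00000015568, chromosome 8 from 68880491 to 68907448, GRCm38) was at 0 CPM in all 3 knockout libraries. Control replicates 1, 2 and 3 held 35.4, 24.8 and 63.2 CPM, and the parental libraries 12.9, 13.0 and 18.4 CPM. The control libraries lay above the parental ones without overlap. Against a floor of 3 counts over the group, Lpl in knockout libraries was at least 762-fold lower than in control and at least 274-fold lower than in parental libraries. Such bounds cover counting error only, and in bulk RNA fewer expressing cells cannot be told apart from less RNA per cell. Between the groups that express it, the control clone exceeded the parental cells in Lpl by 1.48 (log2, SE 0.34, adjusted p 0.0202), a call lost without parental replicate 1 (1.38, adjusted p 0.0859) or 2 (1.38, adjusted p 0.0822).

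The nearest tested gene to Lpl, Ints10, lies 48.8 kb away and averaged 94.2 CPM in knockout, 70.3 CPM in control and 93.0 CPM in parental libraries. The next tested gene on the other side of Lpl, Atp6v1b2, was 0.45 and 0.38 lower on the log2 scale in the knockout clone (adjusted p 0.0122 and 0.0356). Farther out, Csgalnact1 (0.13, adjusted p 0.775) and Zfp930 (0.17, adjusted p 0.399) were not called against the control clone. Against the parental cells Csgalnact1 fell by 1.47 (adjusted p 0.00646) and Zfp930 was not called (0.29, adjusted p 0.172). Sh2d4a fell by 3.38 against the control clone and by 3.15 against the parental cells (adjusted p 5.7e-05 and 0.000137). D130040H23Rik, 363.6 kb from Lpl, was at 0 CPM in the knockout clone and at 1.66 and 0.637 CPM in the other groups. Ints10 and Atp6v1b2, the nearest tested gene on each side, had counts in the knockout clone, and the state of the Lpl locus was not tested. These neighbours were picked after the values of Lpl were seen.

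Cd36 (ENSMUSG00000002944), which encodes a fatty acid translocase, had 0 counts in the knockout clone, 35 in the control clone and 14 in the parental cells. Per library this was 0.698, 0.297 and 0.735 CPM for control and 0.0963, 0.236 and 0.471 CPM for parental replicates. Its knockout level was therefore at least 10.7-fold lower than that of the control and at least 4.96-fold lower than that of the parental group. Fabp4 (ENSMUSG00000062515), a fatty acid binding protein, was at 0, 0.167 and 0.117 CPM in the knockout, 1.22, 0.773 and 0.630 CPM in the control and 0.530, 0.530 and 0.471 CPM in the parental libraries. No knockout library reached the lowest of the others, but all groups were low, with 5 counts in the knockout clone. The filter level was 0.565 CPM before TMM scaling. Fabp4 reached it in all 3 control libraries and in 0 of the knockout and parental libraries, so it was tested only through the group where it is high. Its fitted log2 differences, -3.19 from control and -2.41 from parental, are therefore a description.

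The other tested uptake genes were detected in every library. Slc27a3, a member of the fatty acid transport protein family, was at 0.537, 0.501 and 0.818 CPM in the knockout, 0.723, 0.884 and 0.706 CPM in the parental and 1.53, 2.74 and 1.89 CPM in the control libraries, and the first 2 of these groups overlapped. It was 1.72 lower in the knockout than in the control clone on the log2 scale (SE 0.33, adjusted p 0.00255). The transporter Slc27a4 had log2 fold changes of -0.30 and -0.60 in the knockout clone (adjusted p 0.0244 and 0.00114), and every knockout library lay below all others. The first call was lost without knockout replicate 1 (-0.24, adjusted p 0.117) or 3 (-0.26, adjusted p 0.0946). It was also lost when low counts were not filtered (adjusted p 0.0606) or only the 2 groups compared were fitted (adjusted p 0.0819). Fabp5 was 1.16 lower than in the parental cells (SE 0.23, adjusted p 0.00464) and was not called against the control clone (-0.38, adjusted p 0.213), where the value was -0.61 and called without control replicate 3 and -0.04 without control replicate 2. Slc27a1 was called in neither comparison.

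Angptl4, a secreted inhibitor of lipoprotein lipase, was at 62.4, 71.3 and 68.7 CPM in the knockout, 99.7, 70.8 and 229 CPM in the control and 73.1, 76.4 and 98.8 CPM in the parental libraries. Control replicate 3 stood far above the rest, and control replicate 2 lay within the knockout range. The call against the control clone (-0.98, SE 0.35, adjusted p 0.0492) was lost in 12 of 17 alternatives, among them without any 1 of the knockout or parental replicates (-1.01 to -0.91), and without control replicate 3 the value was -0.34 (adjusted p 0.116). Against the parental cells it was -0.29 (adjusted p 0.563).

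Among the storage and lipolysis genes, Mgll had no count in the knockout clone and Plin2 was higher there than in both other groups. Mgll (ENSMUSG00000033174, chromosome 6 from 88724412 to 88828360), the lipase that splits monoglycerides into glycerol and a fatty acid, was at 0 CPM in every knockout library. Control libraries held 9.86, 3.39 and 17.2 CPM, and parental libraries 1.59, 2.89 and 3.53 CPM. This put the knockout at least 188-fold lower than control and at least 49.4-fold lower than parental libraries. Mgll passed the filter through those 2 groups alone, so this is a description. Abtb1, the nearest tested gene that does not overlap Mgll, lies 7.6 kb away and was at 4.12 CPM in the knockout, 6.11 CPM in the control and 4.71 CPM in the parental group. It was called in neither comparison. Mgll overlaps 5 annotated genes of unknown function, so the division of reads there is uncertain.

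Plin2 (ENSMUSG00000028494), a coat protein of lipid droplets, was at 195, 201 and 195 CPM in the knockout, 118, 145 and 116 CPM in the control and 97.5, 96.2 and 83.3 CPM in the parental libraries. The 3 groups did not overlap. It was 0.64 higher in the knockout than in the control clone (SE 0.10, adjusted p 0.000924) and 1.09 higher than in the parental cells (SE 0.10, adjusted p 9.26e-05), both on the log2 scale. Both were called in all 17 alternatives without a fold threshold, and the first falls short of a log2 difference of 1. Of the enzymes that build triglyceride, Gpam was 0.36 higher than in the control clone (adjusted p 0.00609) and was not called against the parental cells (-0.00, adjusted p 0.985). Dgat1 and Dgat2 were 0.35 and 0.56 lower than in the control clone (adjusted p 0.0191 and 0.0351) and were not called against the parental cells. The Dgat1 call was lost without knockout replicate 2 (-0.32, adjusted p 0.0725) or 3 (-0.31, adjusted p 0.0778), without control replicate 1 (-0.30, adjusted p 0.0678) and in 2 further alternatives, and that of Dgat2 in 10 of 17 alternatives, which left out each knockout replicate, control replicate 1 or 3 or parental replicate 2 or 3 (-0.57 to -0.40) or changed the fit. The lipases Pnpla2 and Lipe and the droplet protein Plin3 were called in neither knockout comparison, although Lipe was called against control without control replicate 3 (0.75) and, like Dgat2, against parental without control replicate 2.

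**Figure D2:**
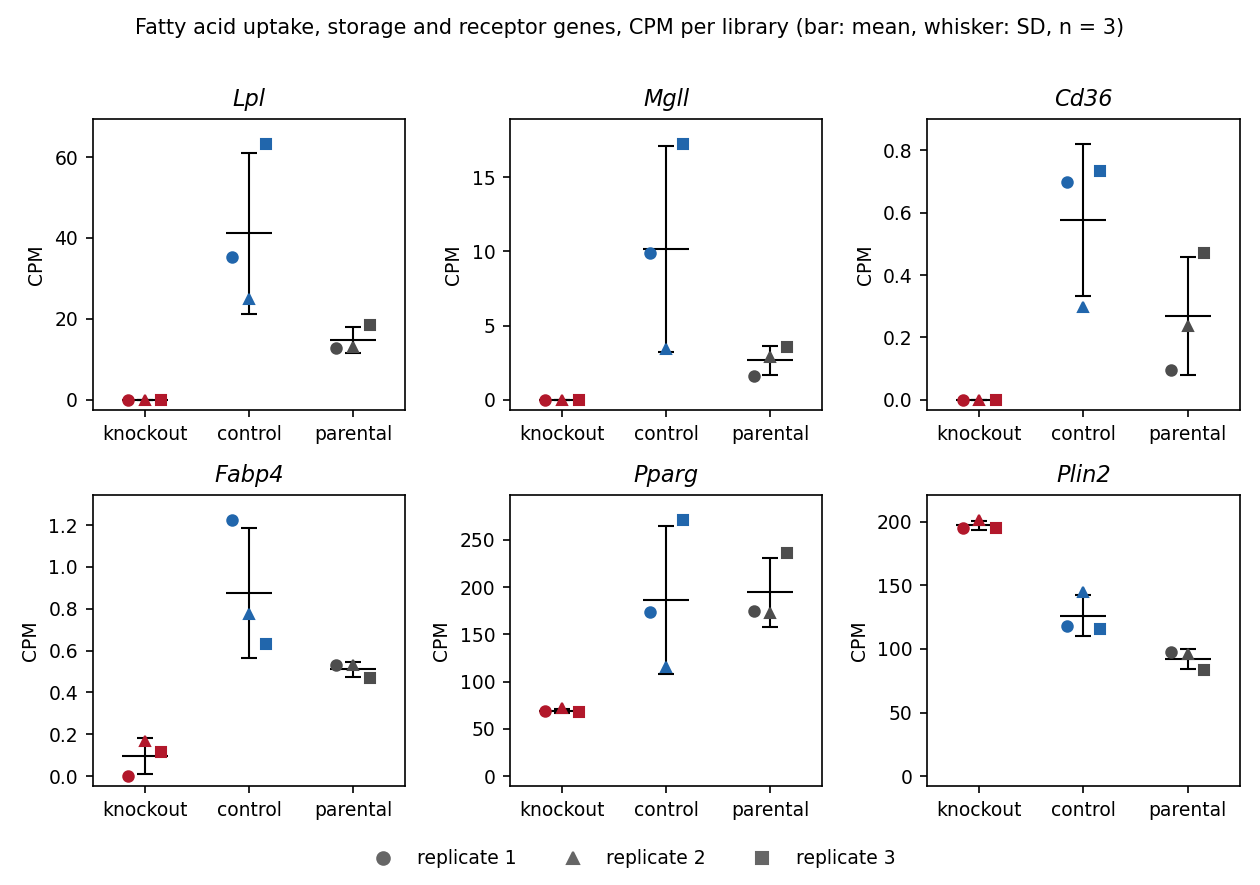
CPM of Lpl, Mgll, Cd36, Fabp4, Pparg and Plin2 (y axis, linear, each panel on its own scale) in the 3 libraries of each group (x axis; symbols give the replicate number), with the mean as a bar and the SD as whiskers. The knockout libraries are at 0 for Lpl, Mgll and Cd36, are lowest for Fabp4 and Pparg and are highest for Plin2.

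Of the nuclear receptors, Pparg was lower and Ppard higher in the knockout clone than in either other group. Pparg (ENSMUSG00000000440, chromosome 6 from 115360951 to 115490399), the receptor best known for driving lipid uptake and storage genes in fat cells, was at 69.2, 71.7 and 67.5 CPM in the knockout, 174, 115 and 271 CPM in the control and 174, 173 and 237 CPM in the parental libraries. The knockout libraries lay below every other library. On the log2 scale Pparg fell by 1.43 against control (SE 0.26, adjusted p 0.00217) and by 1.49 against parental (SE 0.26, adjusted p 0.00269), called in all alternatives run, the fold threshold included. Ppard, expressed in most tissues, was at 171, 154 and 159 CPM in the knockout, 86.7, 122 and 121 CPM in the control and 105, 96.4 and 90.8 CPM in the parental libraries. Here the knockout libraries lay above all others, by 0.56 (SE 0.13, adjusted p 0.00692) and 0.73 (SE 0.13, adjusted p 0.00267) on the log2 scale. Ppara, the receptor known for oxidation genes in liver, stayed low, at 0.684, 1.06 and 0.701 CPM in the knockout, 0.742, 0.535 and 0.945 CPM in the control and 0.289, 0.354 and 0.471 CPM in the parental libraries. The call against the parental cells (1.13, SE 0.38, adjusted p 0.047) was lost in 11 of 16 alternatives, among them without any 1 of the knockout or parental replicates or control replicate 1 (0.90 to 1.33). Ppara reached the filter level in 3 knockout, 2 control and 0 parental libraries, so it passed the filter through the groups where it is higher. Its value against the parental cells is therefore a description.

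Upstream sequences are shown for Cd36, Pparg and Plin2, which stand for a gene without counts, a lower and a higher gene in the knockout clone, and were picked after their values were seen. Pparg has 3 such windows, and the 1 printed is the only one without exonic bases; the exon-free stretches of the others hold 0 and 1 CCAAT. They come from RefSeq (GRCm38.p6), which gave 49 windows for 40 of the members, and hold the bases just upstream of an annotated start, less any that an annotated exon covers. Capitals mark CCAAT, the NF-Y box. The Cd36 and Pparg windows belong to starts inside the gene's annotated span. Cd36 lies on the minus strand at chr5:17835897-17836146, Pparg on the plus strand at chr6:115421816-115422065 and Plin2 on the minus strand at chr4:86670061-86670309.
Cd36: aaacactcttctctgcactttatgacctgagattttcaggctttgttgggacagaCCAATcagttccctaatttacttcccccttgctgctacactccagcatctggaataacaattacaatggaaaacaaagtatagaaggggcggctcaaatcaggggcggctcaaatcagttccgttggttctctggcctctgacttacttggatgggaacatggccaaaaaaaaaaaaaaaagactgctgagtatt
Pparg: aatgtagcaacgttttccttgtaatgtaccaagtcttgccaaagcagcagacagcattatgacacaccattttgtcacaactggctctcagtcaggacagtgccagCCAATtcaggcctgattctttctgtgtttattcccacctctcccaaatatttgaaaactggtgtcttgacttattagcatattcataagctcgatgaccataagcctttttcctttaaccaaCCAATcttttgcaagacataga
Plin2: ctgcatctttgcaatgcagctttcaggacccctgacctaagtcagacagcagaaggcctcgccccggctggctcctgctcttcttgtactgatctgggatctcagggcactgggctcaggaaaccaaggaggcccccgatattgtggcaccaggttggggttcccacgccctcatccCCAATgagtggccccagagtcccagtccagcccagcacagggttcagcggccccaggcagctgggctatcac
Over all 250 upstream bases, exonic ones included, and on both strands, CCAAT stood in 21 of 49 member windows and in 33.9% of all 32851 windows. CACGTG, the E-box, stood in 4 member windows (Elovl5, Lipe, Mgll and Slc27a1) and in 6.02% of all, and the Mgll match stood in a window that annotated exons wholly or largely cover. The sterol regulatory element and direct repeat 1, each searched as 1 fixed string, stood in 0 member windows and in 0.073% and 0.033% of all. These matches describe letters and not binding.

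All 4 synthesis genes were expressed in every group, and Acly was higher in the knockout clone than in both others. Acly, which supplies cytosolic acetyl-CoA, was at 419, 388 and 429 CPM in the knockout, 275, 265 and 358 CPM in the control and 289, 279 and 251 CPM in the parental libraries. The knockout libraries lay above all others, by 0.46 (SE 0.12, adjusted p 0.0109) and 0.59 (SE 0.12, adjusted p 0.00455) on the log2 scale. Acaca, the committed step of synthesis, was at 180, 167 and 164 CPM in the knockout, 124, 149 and 125 CPM in the control and 164, 144 and 127 CPM in the parental libraries. It was called against the control clone (0.36, SE 0.11, adjusted p 0.023) but not against the parental cells (0.23, adjusted p 0.136). The first call was lost without knockout replicate 1 (0.34, adjusted p 0.0681) or control replicate 1 (0.32, adjusted p 0.0793).

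Fasn, fatty acid synthase, was at 488, 399 and 445 CPM in the knockout, 335, 477 and 464 CPM in the control and 325, 291 and 245 CPM in the parental libraries. Both clones lay above the parental cells. The knockout clone was 0.63 higher (SE 0.15, adjusted p 0.0119) and the control clone 0.57 higher (SE 0.15, adjusted p 0.0266) than the parental cells, while the clones overlapped (0.06, adjusted p 0.759). The control call did not hold without parental replicate 2 (0.56, adjusted p 0.0809) or 3 (0.45, adjusted p 0.0951). The mitochondrial isoform Acacb was scarce, at 0.584 to 0.946 CPM in the knockout and 0.674 to 1.35 CPM in the parental libraries, and higher in the control clone, with 8.66 CPM in replicate 3. Its call against the control clone (-2.40, SE 0.68, adjusted p 0.0179) was lost with limma voom (-1.92, adjusted p 0.0662) and on leaving out knockout replicate 1 (-2.36, adjusted p 0.0618) or 3 (-2.25, adjusted p 0.0648). Without control replicate 3 the value was -1.16.

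Among the desaturases and elongases, Fads3 and Elovl5 were lower in the knockout clone in both comparisons and none of the 9 tested was called higher, where 13.4% of all genes were lower and 8.19% higher in both. Elovl5, which elongates polyunsaturated fatty acids, was at 125, 118 and 133 CPM in the knockout, 241, 206 and 213 CPM in the control and 242, 239 and 247 CPM in the parental libraries. The knockout libraries lay below all others, by -0.81 (SE 0.08, adjusted p 7.88e-05) and -0.95 (SE 0.08, adjusted p 5.93e-05) on the log2 scale. Elovl5 lies on chromosome 9, where the median of the 748 tested genes was -0.53 (log2) against each other group; its part in this result was not tested. Fads3, a desaturase relative, had log2 fold changes of -0.51 and -0.50 (SE 0.08 in both, adjusted p 0.00113 and 0.00201). Elovl4, also on chromosome 9, held 17 counts in the knockout clone, 1 in the control clone and 13 in the parental cells. Its ratio to the control clone was 18.0 in the knockout clone, with a 95% counting interval from 2.82 to 751, and 14.0 in the parental cells, from 2.10 to 593.

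The stearoyl-CoA desaturases, which make monounsaturated fatty acids, were not called. Scd2 was at 2914, 2010.1 and 2828 CPM in the knockout, 4052.5, 1936 and 5251 CPM in the control and 2284, 2488 and 2595 CPM in the parental libraries. Scd1 was at 403, 331 and 386 CPM, at 615, 342 and 1231 CPM and at 358, 354 and 430 CPM in the same groups. For both genes control replicate 3 was the highest library, while control replicate 2 lay within or below the range of the other groups. The log2 fold changes against the control clone were -0.54 (SE 0.30, adjusted p 0.171) for Scd2 and -0.97 (SE 0.36, adjusted p 0.0548) for Scd1. Both were called without control replicate 2 (-0.84 and -1.30), Scd1 also in 2 other alternatives, and without control replicate 3 the values were -0.21 and -0.36. Scaled by exon length over all 9 libraries, Scd2 had the highest level of the members at 536 CPM per kb, and Scd1 reached 101 CPM per kb, and the 2 similar genes may share reads. Fads1, Fads2, Elovl1, Elovl6 and Elovl7 were called in neither knockout comparison. Against the parental cells, Elovl6 (0.62, adjusted p 0.0517) and Elovl7 (-0.53, adjusted p 0.0614) were each called in 6 of 17 alternatives, and Fads1 (0.34) and Elovl1 (0.20) in 3. Those calls included the fits without control replicate 2 or 3. Against the control clone, Fads1 (0.44) and Elovl6 (0.46) were called without control replicate 3, and Elovl7 without control replicate 2 or knockout replicate 2.

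Of the 4 acyl-CoA synthetases, Acsl5 was called in both knockout comparisons and the other 3 in neither, where 21.5% of all genes were called with 1 sign in both. Acsl5, a synthetase of mitochondria and endoplasmic reticulum, was at 431, 433 and 423 CPM in the knockout, 793, 611 and 754 CPM in the control and 690.5, 738 and 779 CPM in the parental libraries. The knockout libraries lay below all others, with log2 differences of -0.75 from control (SE 0.10, adjusted p 0.000365) and -0.78 from parental (SE 0.10, adjusted p 0.00047). Acsl5 overlaps Zdhhc6, so reads of the overlap cannot be assigned with certainty. Acsl3 (-0.60 and -0.69), Acsl4 (0.12 and 0.21) and Acsl1 (0.61 and 0.38) were not called. Acsl3 was called against control in 3 alternatives and against parental in 6, in both cases without control replicate 2 (-0.87 against control), and its value against control was -0.33 without control replicate 3. Acsl4 was called against control without control replicate 3 (0.37) and against parental with only the 2 groups compared. The adjusted p of Acsl1 against the control clone was 0.0507, and the gene was called in 6 alternatives, among them without control replicate 3 (0.93, adjusted p 0.00124).

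**Figure D3:**
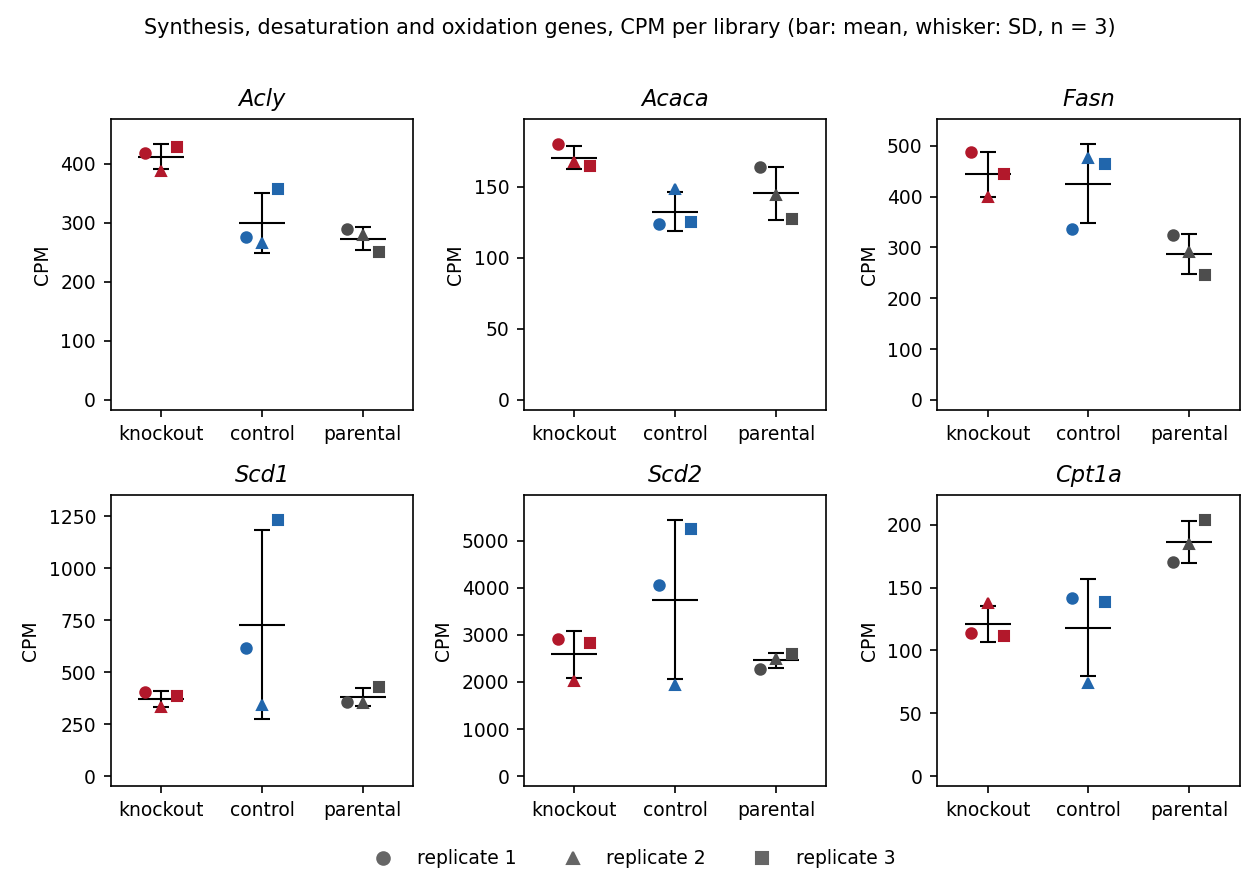
CPM of Acly, Acaca, Fasn, Scd1, Scd2 and Cpt1a (y axis, linear, each panel on its own scale) in the 3 libraries of each group (x axis; symbols give the replicate number), with the mean as a bar and the SD as whiskers. Acly is highest in the knockout libraries, Fasn is lowest in the parental libraries, and the control libraries of Scd1 and Scd2 span the widest range.

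Of the 11 oxidation genes, 1 was called against the control clone and 4 against the parental cells, all lower in the knockout clone, where 24.2% and 18.3% of all genes were called lower. Acadm, the medium-chain acyl-CoA dehydrogenase, was called in both (-0.61, SE 0.14, adjusted p 0.00789; -0.63, SE 0.14, adjusted p 0.0099). Its second call did not hold without parental replicate 3 (-0.53, adjusted p 0.0518). Acadl, Hadhb and Hadh, which act in later or longer-chain steps, were 0.38, 0.39 and 0.79 lower than in the parental cells (adjusted p 0.0248, 0.0409 and 0.0188). These calls were lost in 6, 7 and 4 of 17 alternatives, all of them fits with 1 library left out. For Acadl it was any 1 knockout or parental replicate (-0.41 to -0.35), for Hadhb these or control replicate 1 (-0.45 to -0.33), and for Hadh any 1 knockout replicate or parental replicate 3 (-0.80 to -0.68). All 11 values against the parental cells were below 0, with a median of -0.31, and 9 of 11 against the control clone, with a median of -0.23. Over all genes these medians were -0.01 and -0.02. In the unedited control clone, 8 of the same 11 genes also lay below their parental level, with a median of -0.05 (0.01 over all genes). Acadl was 0.38 lower in each clone than in the parental cells, and its value between the clones was 0.00. The lower values against the parental cells are therefore partly shared by both clones.

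Hadha, the alpha subunit of the mitochondrial trifunctional protein, was at 142, 146 and 141 CPM in the knockout, 162, 137 and 169 CPM in the control and 161, 157 and 167 CPM in the parental libraries. It was called in neither comparison (-0.13 and -0.18). Cpt1a, the rate-limiting carnitine transferase of mitochondrial entry, was at 114, 138 and 112 CPM in the knockout, 142, 73.9 and 139 CPM in the control and 171, 184 and 203 CPM in the parental libraries. The knockout and the control libraries lay below all parental ones and overlapped each other. The log2 fold change was 0.04 against the control clone (SE 0.21, adjusted p 0.91) and -0.62 against the parental cells (SE 0.22, adjusted p 0.0534). The latter was called without control replicate 2 or 3 (-0.62 in both) and in 3 other alternatives. Cpt1c, Cpt2, Acadvl, Acads and Acox3 were not called. Without control replicate 2, Cpt2 (-0.65), Acadvl (-0.65), Acads (-0.47), Hadha (-0.21), Hadhb (-0.35) and Hadh (-0.68) were called against the control clone.

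The control clone and the parental cells, both unedited, also differed. Of the 46 members, 10 were called between them, 6 higher in the control clone (Lpl, Slc27a3, Fasn, Dgat1, Plin2 and Mgll) and 4 lower (Slc27a4, Fabp5, Acadl and Gpam). Over all genes 21.4% were called, 10.4% higher and 11.0% lower, and 10 of 46 lies near that share. The median log2 fold change was 0.07 for the members and 0.01 for all genes. The largest values among those called were 1.94 for Mgll (SE 0.57, adjusted p 0.0485), 1.48 for Lpl and 1.40 for Slc27a3 (SE 0.32, adjusted p 0.0142). The Mgll call was lost in 12 of 16 alternatives, among them without any 1 library other than control replicate 2 (1.34 to 2.19), and that of Slc27a3 without parental replicate 1 (1.34, adjusted p 0.063) or 3 (1.33, adjusted p 0.0537). The calls of Slc27a4, Fabp5 and Acadl were lost in 10, 8 and 8 of 17 alternatives, among them without any 1 parental replicate, knockout replicate 1 or 3, or control replicate 1. Other losses were Slc27a4 without control replicate 2, Fabp5 and Acadl without knockout replicate 2, Gpam without parental replicate 1 (-0.34, adjusted p 0.0557), Plin2 without parental replicate 3 (0.37, adjusted p 0.0527), and Lpl and Fasn as given above. The count of 10 was 17 without control replicate 2, 6 without knockout replicate 1 or 3, and 3, 4 or 3 without parental replicate 1, 2 or 3. With only the 2 groups compared in the fit it was 3, and all genes called went from 2814 to 1525.

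The control libraries differed most among themselves. Over the members, the median SD of log2(CPM + 0.5) was 0.42 for control, 0.08 for knockout and 0.11 for parental libraries. Control replicate 3 was above control replicate 2 in 38 of 46 members (82.6%) and in 50.5% of all genes tested. The median difference was 0.72 on the log2 scale for the members and 0.01 for all genes. All 11 oxidation genes and all 4 synthetases were higher in replicate 3, and the 8 exceptions were Slc27a3, Fabp4, Fabp5, Acaca, Fasn, Fads3, Plin2 and Ppard. Replicates of a group have no order, and the labels name no batch, so these are values of single libraries.

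**Figure D4:**
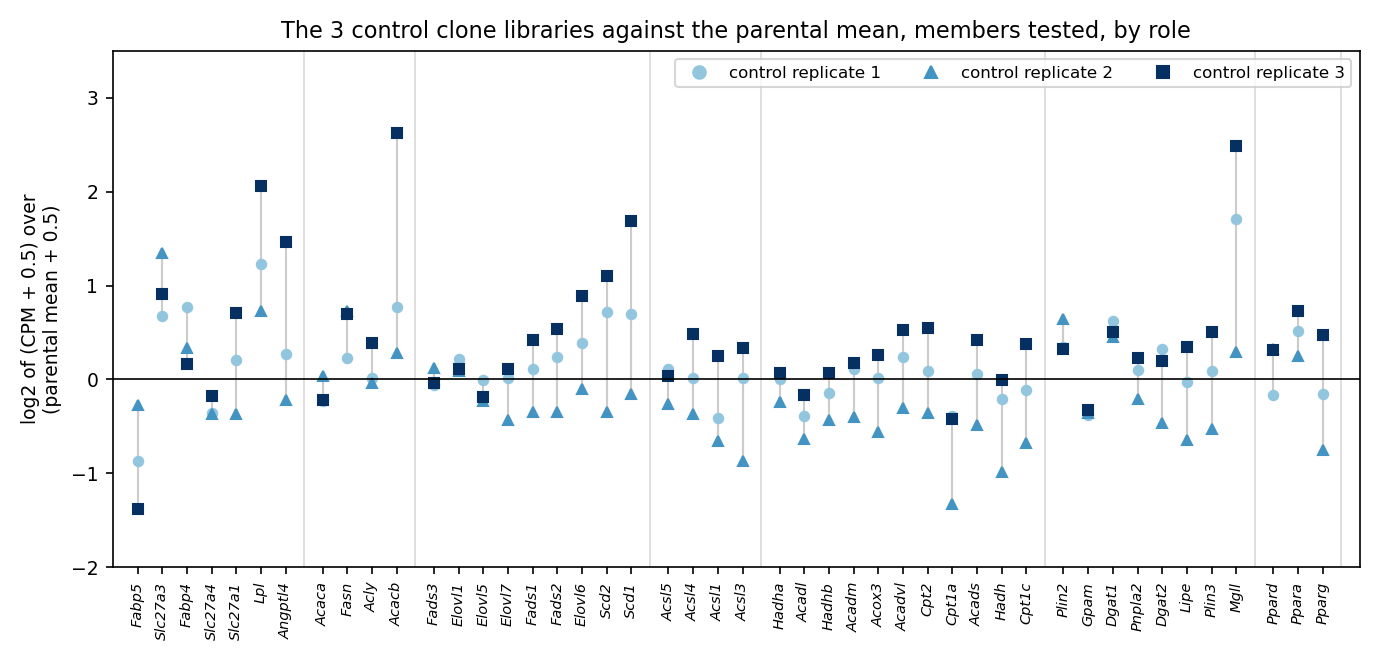
Each control library against the parental mean, as log2 of (CPM + 0.5) over (parental mean + 0.5) (y axis), for the 46 members tested (x axis, by role). Control replicate 3 (squares) lies above control replicate 2 (triangles) in 38 of 46 members, including all 11 oxidation genes.

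A wider list of 128 genes of the same pathways was read from the same fit, of which 98 passed the filter, 24 fell below it and 6 had no count. Against the control clone 5 were higher and 44 lower, and against the parental cells 7 and 37, with medians of -0.37 and -0.31. Of the 13153 genes tested, 18.7% were higher and 24.2% lower in the first comparison, and 13.1% and 18.3% in the second. Called in the same direction in both were 30 (21.5% of all genes), of which Ppargc1a, a coactivator of mitochondrial genes, was higher and 29 were lower. On chromosome 9, 8 of 13 genes were among these 29, and on the other chromosomes 21 of 85. Of all genes tested, 44.8% on chromosome 9 and 11.5% elsewhere were lower in this way. Slc27a6, Fabp2, Acaa1b, Plin4 and Plin5 reached the filter level in 0 knockout libraries, so they were tested through the groups where they are high. Control against parental gave 11 higher and 4 lower, where 10.4% and 11.0% of all genes were called.

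In the uptake group of the wider list, 14 genes were tested. Against the control clone 2 were called higher (Apoe and Furin) and 9 lower, and against the parental cells 0 and 8, among them Apoe, where 18.7%, 24.2%, 13.1% and 18.3% of all genes were called in these ways. Slc27a6, a fatty acid transport protein, held 1 count in the knockout clone, 419 in the control clone and 178 in the parental cells. The control to knockout ratio was 396 with a 95% counting interval from 70.7 to 15686, and the parental to knockout ratio was 181, from 32.0 to 7180. Vldlr, a lipoprotein receptor, differed by -2.49 from control (adjusted p 0.0199) and by -2.68 from parental libraries (adjusted p 0.02). Lrp1, another such receptor, differed by -1.86 (adjusted p 0.0059) and -1.70 (adjusted p 0.013). Control replicate 2 of Vldlr lay at 0.952 CPM, within the range of the knockout libraries. The Vldlr call was lost in each comparison with limma voom and without knockout replicate 1, 2 or 3, and without control replicate 3 (-1.64, adjusted p 0.0578) or parental replicate 3 (-2.45, adjusted p 0.0675) in the comparison each enters. Lmf1, which lipoprotein lipase needs to mature, was 1.43 and 0.82 lower (adjusted p 0.000376 and 0.0105). Against the parental cells the Lmf1 call was lost without knockout replicate 1 (-0.74, adjusted p 0.0532) and that of Lrp1 without knockout replicate 3 (-1.66, adjusted p 0.0507). Gpihbp1, which anchors lipoprotein lipase to capillaries, had no count in any library.

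The droplet proteins Plin4 and Plin5 passed the filter only through control and parental libraries, so their values are a description. Plin4 was at 0.537, 0.445 and 0.526 CPM in the knockout, 18.5, 3.87 and 42.4 CPM in the control and 5.30, 6.37 and 11.8 CPM in the parental libraries. No knockout library reached the others. Plin5 held 1, 8 and 4 counts in the knockout, 29, 6 and 45 in the control and 30, 19 and 23 in the parental libraries, and control replicate 2 overlapped the knockout range. Of the transcription factors, Nr1h3, the liver X receptor alpha, fell by 2.55 and 2.46 (adjusted p 0.000281 and 0.000569), and Srebf1, a driver of synthesis genes, by 0.56 and 0.39 (adjusted p 0.00277 and 0.0233). Of these, the second for Srebf1 was lost without knockout replicate 1 (-0.41, adjusted p 0.0701) or 2 (-0.33, adjusted p 0.1) and without parental replicate 2 (-0.41, adjusted p 0.0652) or 3 (-0.33, adjusted p 0.104). Acaa1b, a peroxisomal thiolase on chromosome 9, held 1 count in the knockout clone, 85 in the control clone and 68 in the parental cells, and its near copy Acaa1a can share its reads. The ratios were 80.4 (95% counting interval 14.0 to 3212) and 69.1 (12.0 to 2767).

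**Figure D5:**
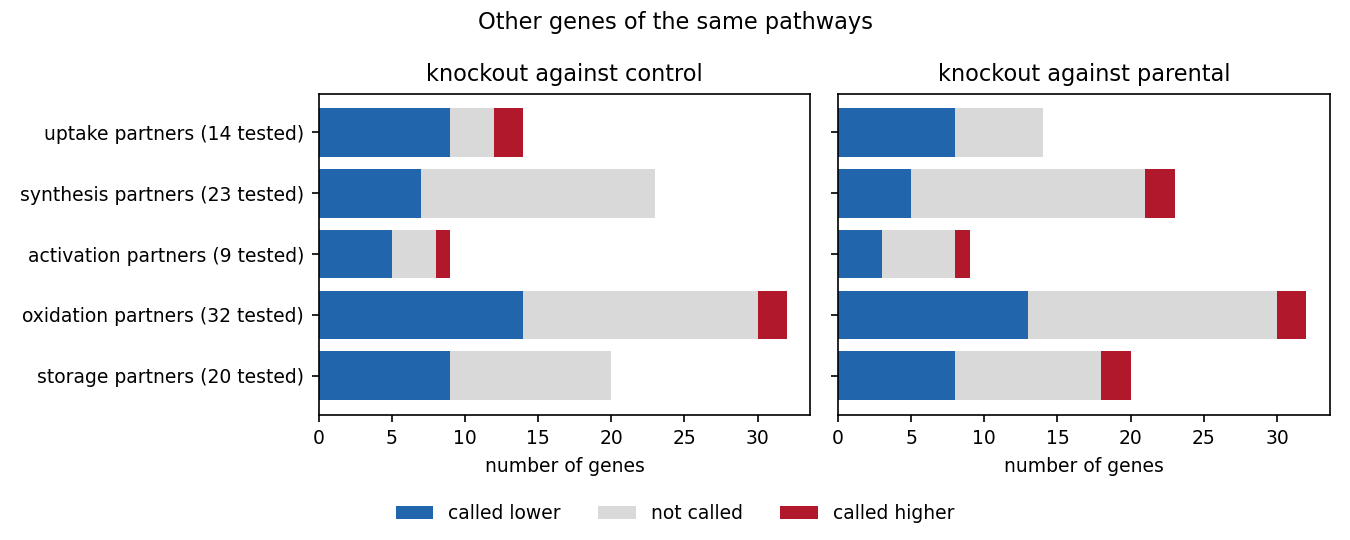
Number of tested genes of the wider list (x axis) that were called lower, not called or called higher in the knockout clone, by role (y axis), against the control clone (left) and the parental cells (right). Genes called lower outnumber genes called higher in every role group of both panels, 44 to 5 and 37 to 7 in all.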

How the data were processed

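Total RNA from 9 untreated cell samples was made into KAPA mRNA HyperPrep libraries, per the labels' protocols. The deposited table holds the authors' RSEM estimated counts, all whole numbers, for 54838 Ensembl genes; the submitters' processing notes name STAR 2.5.2, RSEM 1.3.0, DESeq2 1.10.1 and GRCm38. The annotation release and strand setting are not given in the sources used here. Groups and replicate numbers come from the sample labels.

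Symbols and positions come from GENCODE M21, which matched 54809 IDs. Counts were filtered with filterByExpr (minimum count 10, minimum total 15), scaled by TMM and tested with edgeR 4.0.16 (quasi-likelihood, 1 fit over all 9 libraries by group). P-values were adjusted by Benjamini-Hochberg over all 13153 genes tested and called under 0.05. SE is the absolute log2 fold change divided by the root of F. The procedure was tested on simulated data. Members and lists were chosen with earlier results of these data known; all members enter the counts, and those named with values follow their role and their calls. Alternatives were other scalings and filters, DESeq2 1.42.0, limma voom 3.58.1, a replicate block, only the 2 groups compared, a fold threshold and leaving out each library. No 2 libraries of the same group agreed within sampling noise (lowest chi-square per gene 4.90), and pairs across groups were not checked. Totals set the counting precision, and floors and intervals cover counting error only.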

Additional observations from a re-analysis of the deposited data

How the results depend on the processing

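No called value changed sign in any alternative. Over the 17 alternatives without a fold threshold, 24 of 45 member results called were called in each that tested them, and of 91 not called, 50 stayed so. Counts stayed within 1.5 times under both other scalings, both other filters, DESeq2 and limma voom. Fitting only the 2 groups compared called 6840 genes and 31 members for knockout against parental, and 1525 genes and 3 members for control against parental. A log2 difference of 1 or more was met by 1843, 1392 and 851 genes and 5, 6 and 3 members for knockout against control, knockout against parental and control against parental, and 3 members in both knockout comparisons. Leaving out 1 library gave 4301 to 7204, 2515 to 5693 and 1472 to 4102 genes and 14 to 29, 11 to 28 and 3 to 17 members, and 9 to 19 members in both. The highest member counts came without control replicate 2. The cause was not tested.

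Deviations of same-numbered samples correlated from -0.18 to 0.27, so the numbers were not taken to pair them, and not every sample correlated best with its own number. With the replicate number as a block, 5528, 3941 and 2492 genes and 19, 18 and 8 members were called, and 12 in both. Genes with few counts, such as Cd36, Elovl4 and Fabp4, are limited by depth.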
